A study of Caenorhabditis elegans with 2 samples.

Results

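The autophagy genes of Caenorhabditis elegans were followed through ChIP-seq peak lists of KLF-2, one of the Krüppel-like transcription factors of the worm. The set was a fixed list of 30 named genes among 19973 nuclear protein-coding genes, taken because worm KLF proteins are known to regulate autophagy, and all 30 symbols matched an annotated gene. The 2 biological replicates formed a single group: midembryonic worms with a labelled age of 1.5 hours, collected by egg bleaching, of strain RW12310, in which a CRISPR insertion tags klf-2 with TY1, EGFP and 3xFLAG. Chromatin of whole embryos was sonicated and recovered with an antibody against GFP, so all cell types were pooled. The labels give no second condition or genotype, both replicates carry the same strain, and per the labels the insertion is on chromosome II, while klf-2 is annotated on V.

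Autophagy encloses cytoplasm in a double membrane, the autophagosome, and delivers it to the lysosome for breakdown. A kinase complex and a lipid kinase complex start the membrane, lipid-transfer proteins enlarge it, ubiquitin-like proteins are attached to it, and receptors load the cargo before fusion with the lysosome. In worm embryos the pathway removes maternal P-granule proteins from somatic cells. Krüppel-like factors bind GC-rich boxes, and KLF-1 and KLF-3 of the worm are known from adult animals to act on autophagy genes and lifespan.

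Each gene was scored by the highest peak whose summit lay in its promoter window, which ran from 1000 bp before to 500 bp after each of its transcript starts. This was done in each list by itself, so a replicate's value can belong to another summit of the window. The score is the signal value that the authors' peak caller gave the peak, which has no unit and is not normalized between lists. The ranked list of both replicates held 111583 peaks, mostly weak, that of replicate 1 held 63024 and that of replicate 2 held 50044. The conservative list held the 1032 peaks that passed the authors' irreproducible discovery rate (IDR) threshold, and the lowest −log10 global IDR among them was 2.00. No read number is stated in the files, so the depth is unknown, and the width of a peak says little because 99.9% of the peaks in the ranked list of both replicates were 296 bp wide. A further 176 peaks of the ranked list reached a −log10 global IDR of 2 without being in the conservative list, none of them at an autophagy gene as its highest peak.

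Of the 30 autophagy genes, 5 had a conservative peak in the promoter window. They were rab-7, atg-18, hlh-30, epg-2 and epg-9. This is 16.7% of the list (exact 95% binomial interval 5.64 to 34.7%, counting error only), and the same window held a conservative peak in 3.05% of all protein-coding genes. The count rested on both libraries together: the thresholded list of replicate 1 alone had 2 of the 30 genes (atg-18 and rab-7, with 1.29% of all genes), and that of replicate 2 alone had 1 (rab-7, with 1.52%). None of the highest peaks of the autophagy genes lay within 100 bp of a tRNA, snoRNA, snRNA or rRNA gene. The share of all genes with such a highest peak was not computed. Without peaks at these small-RNA genes, 2.64% of all genes had a conservative peak in place of 3.05%, so they were uncommon in general.

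The DNA under the summit is shown for 4 of the 5 genes with a conservative peak and for sqst-1, the gene nearest to the threshold from below. Each line gives 101 bases centred on the summit, on the strand of the gene, from WBcel235, whose coordinates are those of ce11. The regions are chrII:11967689-11967789 (minus strand) for rab-7, chrV:8631535-8631635 (minus) for atg-18, chrIV:4028300-4028400 (minus) for hlh-30, chrIV:2602785-2602885 (plus) for epg-9 and chrIV:12033367-12033467 (plus) for sqst-1. Capitals mark the Krüppel-like box CCGCCC (the related CCACCC is in none of these stretches). They also mark the GC-rich word CGCGC and the palindrome CACGTG, each on either strand. The stretch of epg-2 is not shown, and it holds both CCGCCC and CGCGC.
rab-7: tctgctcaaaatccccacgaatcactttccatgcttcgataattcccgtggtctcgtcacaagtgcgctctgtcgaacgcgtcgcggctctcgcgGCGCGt
atg-18: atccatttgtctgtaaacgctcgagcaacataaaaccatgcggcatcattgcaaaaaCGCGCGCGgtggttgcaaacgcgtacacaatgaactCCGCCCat
hlh-30: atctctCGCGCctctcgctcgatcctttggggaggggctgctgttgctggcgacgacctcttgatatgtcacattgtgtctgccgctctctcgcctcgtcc
epg-9: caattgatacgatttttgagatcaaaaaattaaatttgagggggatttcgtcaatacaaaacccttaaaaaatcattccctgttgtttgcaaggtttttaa
sqst-1: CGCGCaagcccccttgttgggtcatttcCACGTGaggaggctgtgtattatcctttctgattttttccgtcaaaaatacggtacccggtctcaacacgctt

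The highest peak of the list was at rab-7, the gene of a small GTPase that brings late endosomes and autophagosomes to fusion. It lay on chromosome II from 11967591 to 11967886 in intergenic DNA, 808 bp upstream of the start of rab-7. Its signal value was 207.6 in the list of both replicates, where rab-7 ranked 55 of 19973 genes. The value was 113.0 in replicate 1 (rank 52) and 90.02 in replicate 2 (rank 89), and the summits of the replicates lay 29 bp and 14 bp from the common one. This peak passed every thresholded list, and its −log10 global IDR was 3.48. The start of another gene, W03C9.5, was nearer at 195 bp, and the window of mex-1, whose start was 898 bp away, held the peak too. Both of these genes have it upstream, and counted for the nearest start the peak belongs to W03C9.5. With each peak counted for its nearest start alone, 4 of the 30 genes had a conservative peak, beside 2.27% of all genes.

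The peak at atg-18, which encodes a WIPI-family protein that binds the phosphoinositide PI3P on the growing membrane, was nearest to its own gene. It lay in intergenic DNA on chromosome V from 8631437 to 8631732, 258 bp upstream of the start. The signal value was 95.3 in both replicates together (rank 355), 54.5 in replicate 1 (rank 293) and 41.1 in replicate 2 (rank 567). The replicates placed the summit within 10 bp of each other. The peak passed the threshold of replicate 1 and not that of replicate 2, with a −log10 global IDR of 2.69 in the list of both.

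hlh-30 encodes the worm TFEB, the transcription factor that switches on autophagy and lysosome genes. Its highest peak lay on chromosome IV from 4028202 to 4028497, in an intron and 223 bp upstream of an internal start. The signal value was 91.4 (rank 400), with 47.2 in replicate 1 and 41.5 in replicate 2. The summits of the replicates lay 1 bp and 5 bp from the common one. hlh-30 has 10 distinct starts and its windows cover 6447 bp, against a median of 1501 bp for all genes, and 12 ranked summits fell into them. Of genes whose windows cover more than 3100 bp, 8.62% had a conservative peak, against 2.53% of genes with up to 1600 bp. Of the autophagy genes, 2 had such long windows, hlh-30 and epg-9, and both had a conservative peak. Among the 18 with up to 1600 bp it was 3, and among the 10 in between it was 0, where the share of all genes was 4.18%.

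epg-2 encodes an adaptor that takes P-granule aggregates into autophagosomes. Its peak lay on chromosome I from 2299431 to 2299726, 507 bp upstream of the start and in an intron of the neighbouring gene tpxl-1. The signal value was 84.7 (rank 468), with 38.9 in replicate 1 (rank 901) and 39.2 in replicate 2 (rank 648). The start nearest to the summit was that of epg-2.

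The conservative call at epg-9, the gene of the ATG101-like subunit of the initiation complex, was the closest to the threshold. The peak lay on chromosome IV from 2602687 to 2602982, in an intron and 409 bp upstream of the nearest of 3 starts. Its signal value was 70.7 (rank 735) and its −log10 global IDR 2.09. The highest value in the window was 43.3 in replicate 1 and 32.9 in replicate 2, and at the summit itself replicate 1 gave 40.5. The other thresholded list of both replicates did not hold this peak, and with that list 4 of the 30 genes had a peak, beside 3.05% of all genes.

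Just below the threshold stood sqst-1, the p62 homologue that carries ubiquitinated cargo. Its peak on chromosome IV from 12033269 to 12033564, 865 bp upstream, had a signal value of 71.0, as high as that of epg-9, and a −log10 global IDR of 1.63. Replicate 1 gave 43.8 and replicate 2 gave 26.7, and the nearest summit of replicate 2 was 126 bp away. The gene next in signal was lgg-2, with 66.1 and a −log10 global IDR of 1.19.

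**Figure D1:**
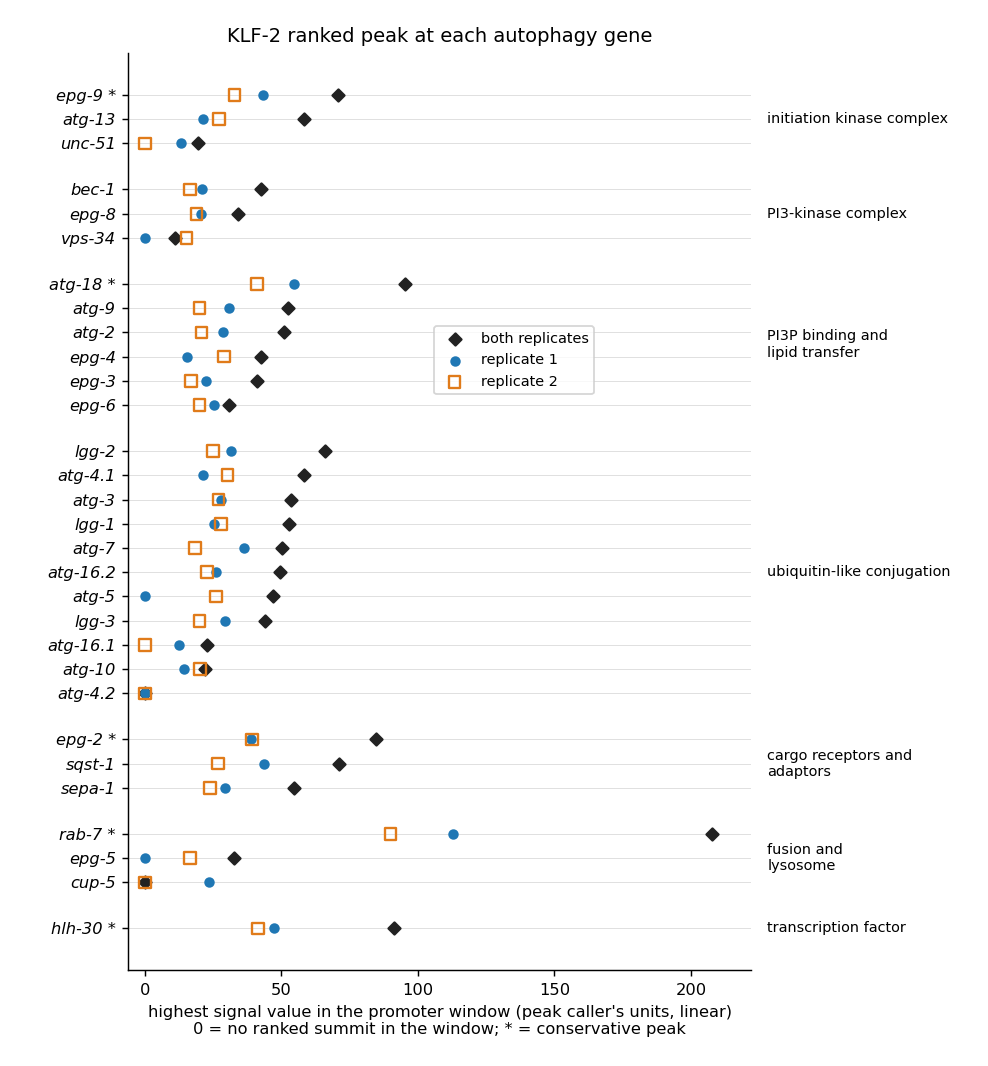
Highest signal value in the promoter window (x axis, peak caller's units, linear) for each of the 30 autophagy genes, grouped by role, in the ranked list of both replicates (diamonds), of replicate 1 (circles) and of replicate 2 (open squares). The 5 genes with a conservative peak carry a star. rab-7 stands apart at 207.6, and atg-4.2 is at 0 in all 3 lists.

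Beyond the threshold, the median of the list lay high in the ranking of genes, with 6 of the 30 below percentile 50. The median signal value of the 30 genes in the list of both replicates was 49.8, against 30 over all genes, which is percentile 85.2 of all genes. Of the 30, 20 were at or above percentile 75 (25% of all genes by construction) and 9 at or above percentile 90 (10%). The medians were 25.3 against 15.99 in replicate 1 and 21.8 against 12.8 in replicate 2, at percentiles 77.1 and 74.1. A ranked summit lay in the window of 28 genes, beside 77.9% of all genes, since the ranked list holds weak peaks. In replicate 1 it was 26 genes, beside 61.3%, and in replicate 2 it was 26, beside 54.8%. Both replicates had a ranked summit in the window of 23 of the 30 genes, against 41.7% of all genes. A gene's score is the maximum over its windows, and longer windows give more places for a peak. Of the 30, 10 had windows over 1600 and up to 3100 bp and 2 longer ones, against 2919 and 928 of 19973 genes. The median lengths were 1508 and 1501 bp. The part of window length in these values was not tested.

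**Figure D2:**
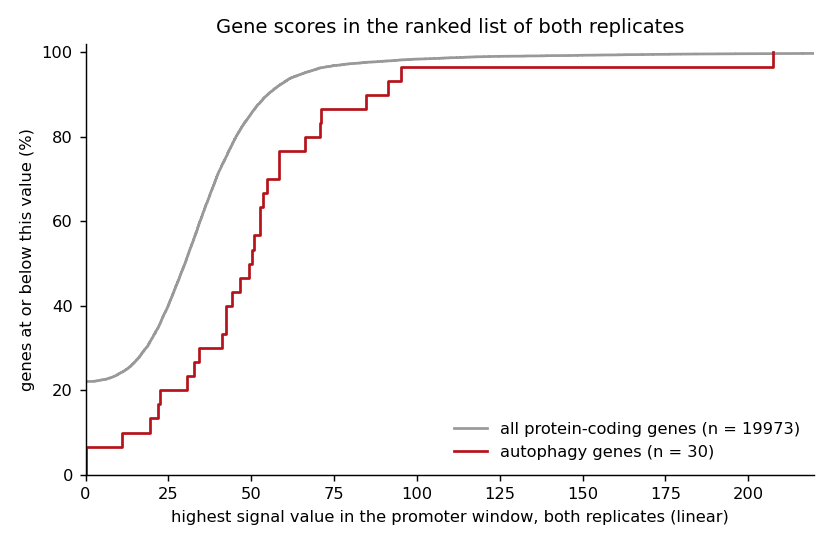
Cumulative share of genes (y axis, %) by highest signal value in the promoter window in the ranked list of both replicates (x axis, linear), for all 19973 protein-coding genes (grey) and the 30 autophagy genes (red). A small share of all genes lies beyond the right end of the axis. The red curve lies to the right of the grey one over most of the range, with medians of 49.8 and 30.

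In the initiation kinase complex the genes differed widely. atg-13, whose product holds the complex together, had a signal value of 58.5 (rank 1561), with 21.5 in replicate 1 and 27.2 in replicate 2. Its summit lay 440 bp upstream in intergenic DNA. unc-51, the gene of the ULK1-like kinase itself, was near the bottom of the list with 19.3 (rank 13731), 13.1 in replicate 1 and no ranked summit in replicate 2. The highest peak of unc-51 lay 27 bp downstream of its start, 589 bp from the nearest summit of replicate 1.

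The 3 genes of the lipid kinase complex had signal values from 10.9 to 42.5, and none had a conservative peak, beside 3.05% of all genes. bec-1, the Beclin 1 gene, had 42.5, with 20.8 in replicate 1 and 16.4 in replicate 2, at a summit 39 bp downstream of a start. epg-8, the ATG14-like subunit gene, had 34.1, with 20.7 and 18.9, but the nearest summit of replicate 2 was 583 bp away. vps-34, which encodes the lipid kinase, had 10.9 (rank 15131), no ranked summit in replicate 1 and 15.3 in replicate 2. The summit of replicate 2 nearest to the common one of vps-34 was 579 bp away, with 5.85. None of these 3 genes reached percentile 90, and bec-1 alone reached percentile 75.

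Of the other genes for PI3P binding and lipid transfer, atg-9, a transmembrane protein gene whose product seeds the membrane, had 52.6, with 30.9 in replicate 1 and 20.1 in replicate 2. atg-2, the lipid-transfer protein gene, had 50.9, with 28.5 and 20.7. epg-4, the EI24 homologue, had 42.4, and it stood higher in replicate 2 (29.0, percentile 89.8) than in replicate 1 (15.3, percentile 48.6). epg-3, the VMP1 homologue, had 41.1, with 22.6 in replicate 1 and 17 in replicate 2. epg-6, like atg-18 a gene of a WIPI-family protein, had 30.7, at percentile 51.5 of all genes. Replicate 1 gave 25.2 (percentile 76.8) and replicate 2 gave 20.03 (percentile 68.9). The nearest summits of the replicates lay 185 bp and 374 bp from the common one. The peaks of atg-9 and atg-2 lay inside the genes, in a coding exon and an intron, upstream of internal starts.

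The 11 genes of the ubiquitin-like conjugation group had a median signal value of 49.4. None had a conservative peak, and with 3.05% of all genes having one a count of 0 among so few is near the background. lgg-2, which encodes the LC3-like protein, led with 66.1, with 31.4 in replicate 1 and 25.02 in replicate 2, at a summit 80 bp upstream of the start. lgg-1, the gene of the GABARAP-like protein commonly used to mark autophagosomes, had 52.7, with 25.4 and 27.9, and its highest summit was at the other end of this short gene, 459 bp downstream of the start in the annotated 3′ UTR. lgg-3, the ATG12 gene, had 44.1, at a summit nearer to the start of rgs-5 (55 bp) than to its own (487 bp).

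The enzymes of the group fell into higher and lower ones. atg-4.1, a protease gene that processes the LGG proteins, had 58.5, with 21.3 in replicate 1 (percentile 65.5) and 30.3 in replicate 2 (percentile 91.3). Its paralogue atg-4.2 had no ranked summit in any of the 3 lists. atg-3, the gene of the E2-like enzyme for the LGG proteins, had 53.6, with 27.9 in replicate 1 and 27.0 in replicate 2. atg-7, the E1-like enzyme gene, had 50.1, with 36.4 and 18.4, at a summit in a coding exon of let-70, whose start was the nearer one. atg-10, the E2-like enzyme gene for the ATG12 homologue, had 21.96, with 14.3 and 20.1.

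The genes of the complex that completes the conjugation differed between paralogues too. atg-16.2 had 49.4, with 26.2 in replicate 1 and 22.8 in replicate 2, and atg-16.1 had 22.6, with 12.7 and no ranked summit in replicate 2. atg-5 had 46.8, but it had no ranked summit in replicate 1 and 26.1 in replicate 2. For the pairs of paralogues there are only 2 replicates, and the values give an order without a test.

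All 3 genes for cargo receptors and adaptors were high. Beside epg-2 and sqst-1, sepa-1, whose product is the receptor for P-granule components, had 54.8 (rank 2024), with 29.3 in replicate 1 and 23.9 in replicate 2, at a summit 319 bp upstream. The median of the group was at percentile 96.4 of all genes. Of the genes for fusion and the lysosome, epg-5, a tether gene, had 32.6, with no ranked summit in replicate 1 and 16.7 in replicate 2. cup-5, the gene of the mucolipin-like channel, had no ranked summit in the list of both replicates or in replicate 2 and 23.3 in replicate 1.

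**Figure D3:**
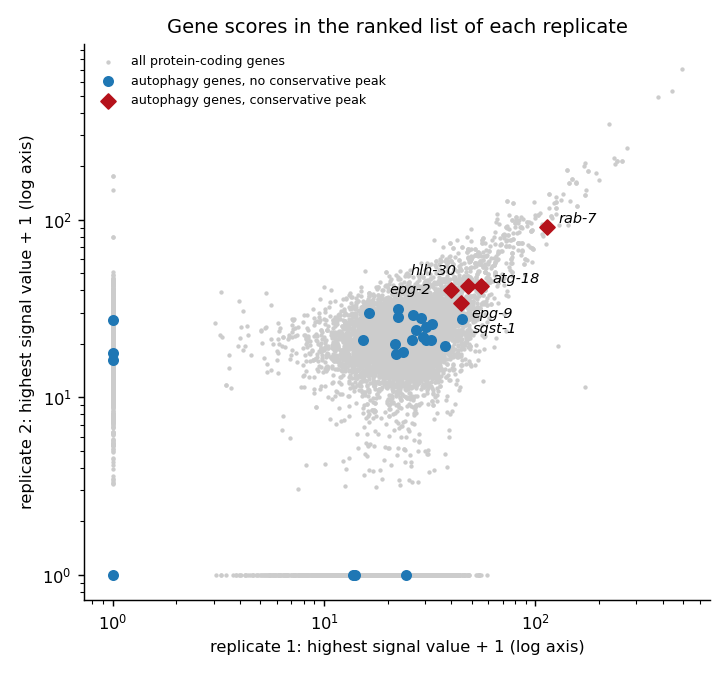
Highest signal value + 1 in the promoter window in replicate 1 (x axis) and replicate 2 (y axis), both on log axes, for all protein-coding genes (grey), autophagy genes without (blue) and with (red) a conservative peak. Points on the left and lower edges have no ranked summit in that replicate. rab-7 lies apart from the other 4 genes with a conservative peak, and sqst-1 lies below them in replicate 2.

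The replicates ranked the autophagy genes alike in part. Spearman's rho between the scores of replicate 1 and replicate 2 was 0.63 over the 30 genes and 0.45 over all genes. The points share the 2 libraries, and genes with no ranked summit count as 0. With only the 23 genes that had a summit in both lists, rho was 0.48. For 18 of the 28 genes with a ranked summit, a summit of each replicate lay within 100 bp of the highest common one (64.3%), against 30.8% of all genes with a ranked summit. That share was larger among genes with higher peaks. Whether height accounts for the difference from all genes was not tested. All 18 were among the 20 autophagy genes at or above percentile 75, where 65.5% of all genes had such summits. Of the 20, the exceptions were sqst-1 and atg-5. Of the 8 lower genes with a ranked summit, 0 had them. Over all genes, 4789 of 15562 had such summits, and 3270 of these were at or above percentile 75. They were thus rarer among lower genes in general, and a count of 0 of 8 says little.

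The highest summits lay mostly upstream. Of the 28 genes, 23 had the highest summit upstream of their nearest start (82.1%), against 66.9% of all genes with a ranked summit, and the median distance was 265 bp against 339 bp. Both shares count internal starts. At hlh-30, epg-9, atg-2, atg-9, epg-8 and epg-6 the upstream summit lay inside the gene, before an internal start. In 25 genes the nearest start was the gene's own, against 85.8% of all genes. The exceptions were rab-7, lgg-3 and atg-7, and the highest peak of atg-3 also lay in the window of Y55F3AM.9, 916 bp upstream of its start. None of the 25 genes without a conservative peak in the window had one in the gene body. The share of all genes was not computed, so this is not read as a result about the list. The nearest conservative summit to a start of these 25 genes was 2989 bp away (sepa-1, downstream), and the farthest was 175937 bp away (atg-9).

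**Figure D4:**
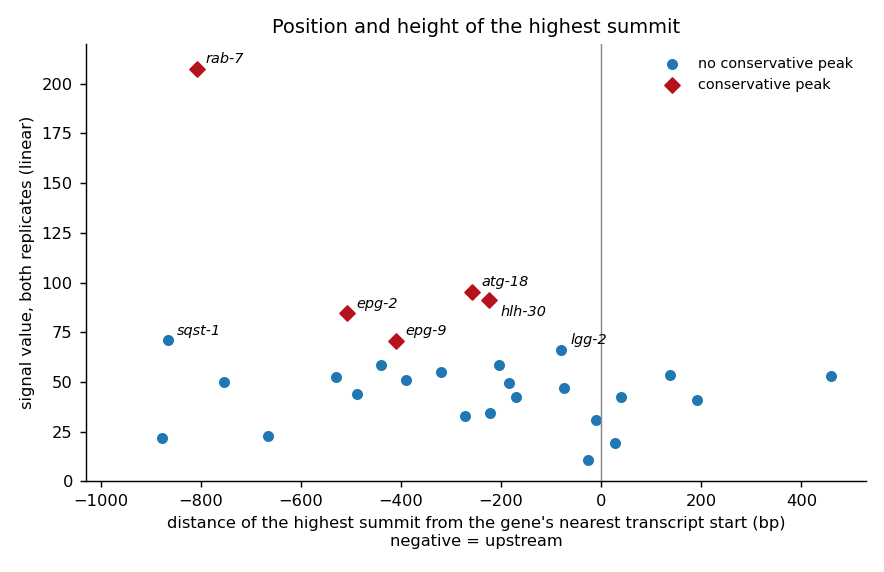
Signal value of the highest peak in the ranked list of both replicates (y axis, linear) against the distance of its summit from the nearest transcript start of the gene (x axis, bp, negative upstream) for the 28 autophagy genes with a ranked summit. All 5 genes with a conservative peak (red) have it upstream of their nearest start, from 223 bp at hlh-30 to 808 bp at rab-7. At hlh-30 and epg-9 that start is an internal one, and the summit lies in an intron of the gene.

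The summits of the autophagy genes had a higher median share of G and C than those of all genes. The 101 bases around the highest summit of the autophagy genes had a median of 47.5% G and C, against 39.6% for all genes with a ranked summit and 35.4% in the nuclear genome. The values of the genes with a conservative peak ran from 29.7% at epg-9 to 60.4% at hlh-30, with 57.4% at rab-7, 53.5% at epg-2 and 49.5% at atg-18. Over the 28 genes the share ran from 21.8% at atg-4.1 to 62.4% at atg-9. The summits of atg-9, atg-3, epg-3, epg-8, bec-1, atg-7 and atg-10 lay in coding exons, so the values are not those of promoter DNA alone. The share of coding-exon summits over all genes was not computed. The part of the G and C share in the signal values was not tested.

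The Krüppel-like factor box was searched at the summits. CCGCCC on either strand lay within 50 bp of the highest summit of atg-18, epg-2 and atg-5 (3.64% of all genes with a ranked summit), and CCACCC of none (2.71%). One or other of the 2 boxes, which can share bases where they adjoin, was found in 3 of 28 genes, beside 5.98% of all genes with a ranked summit, and in 2 of the 5 genes with a conservative peak, beside 17% of the 610 such genes (14.1% for CCGCCC and 3.44% for CCACCC). In the sequences above, atg-18 carries CCGCCC near the gene-proximal end of the stretch, while rab-7, hlh-30, epg-9 and sqst-1 carry neither box.

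CGCGC, chosen here because GC-rich words of this kind were frequent at KLF-2 summits in earlier results of these data, was found at 7 of the 28 summits, beside 8.6% of all genes. They were those of rab-7, atg-18, hlh-30, epg-2, sqst-1, atg-3 and atg-16.2. Of the 5 genes with a conservative peak 4 had it, beside 36.9% of the 610, and epg-9, whose summit is rich in A and T, did not. CACGTG, the palindrome that HLH-30 and other basic helix-loop-helix proteins bind, lay at the summits of sqst-1, atg-13 and atg-3, beside 2% of all genes, and at none of those with a conservative peak, beside 1.48% of the 610. GAGAGA, the word that GAGA-type factors of other animals bind, lay at 1 of the 28 summits, that of hlh-30, beside 7.04% of all genes and 12% of the 610.

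The rest of the pathway was described with 99 further genes in 4 lists. Of these, 1 had a conservative peak, beside 3.05% of all genes. It was vps-39, a gene of the HOPS complex that tethers autophagosomes and endosomes to lysosomes. Its peak on chromosome V from 14038748 to 14039043, 518 bp upstream, had a signal value of 176.1 (rank 86), with 111.8 in replicate 1 and 72.0 in replicate 2, and the rab-7 peak alone among the 30 genes was higher. It was found in each thresholded list.

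Among the other lists, 27 further autophagy genes had a median signal value of 37.0, with vps-15 (57.1), pink-1 (55.9) and ikke-1 (55.0) next to vps-39. The vps-15 peak lay 998 bp upstream in a coding exon of hmg-12, whose start was the nearer one. The 22 genes of TOR and AMPK signalling, which sense nutrients and energy, had a median of 36.7 and 0 conservative peaks, with aakb-2 (70.4), raga-1 (64.6) and flcn-1 (62.9) the highest. The aakb-2 peak was nearer to the start of Y47D3A.14, and that of raga-1 lay in a coding exon of saps-1. The 38 genes of the lysosome and V-ATPase had a median of 39.5, 0 conservative peaks and no value above the 59.3 of vha-1. The 12 genes of transcription factors linked to autophagy had a median of 38.5 and 0 conservative peaks. The highest there were daf-16, the FOXO gene, with 72.3, pha-4, the FoxA gene, with 69.3 and a −log10 global IDR of 1.97, and klf-2 itself with 64.2. The counts of 0 stand beside 3.05% of all genes and are near that background at these list sizes. The medians of the 4 lists lay at percentiles 64.6 to 70.2 of all genes.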

How the data were processed

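ChIP-seq was done on 2 biological replicates of 1 group. The authors deposited ranked and IDR-thresholded peak lists in ce11 coordinates, which per the file headers and notes derive from the alignments of each replicate or of both and from a further file; thresholded lists derive from 1 more file. The peak caller and the aligner were not given in the sources used here. The deposited signal value is that of the peak caller, and the deposited −log10 global IDR was taken as it stands.

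Genes and starts came from Ensembl release 115 (WBcel235), and sequence from the RefSeq copy of WBcel235. Summits were assigned to promoter windows with Python 3.11.15, pandas 2.3.3 and SciPy 1.17.1. A gene's score is its highest signal value, 0 where no summit was found, and a percentile counts genes with a lower score plus an equal share of ties on either side. The assignment was tested on simulated data and gave back 200 of 200 placed summits. The genes named were all 30 of the list, and of other lists the genes with a conservative peak or the highest values.

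The 30 genes and the other lists were chosen with earlier results of these data known, so no p-values were computed. Motifs were searched on both strands. Of 100 further entries 99 matched a gene. The control library was not analysed here.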

Additional observations from a re-analysis of the deposited data

How the results depend on the processing

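The count of 5 autophagy genes with a conservative peak stood beside 3.05% of all genes. It was 5 with a window from 2000 bp upstream (4.12% of all genes). It was also 5 without peaks at small-RNA genes (2.64%) and with peak overlap in place of the summit (3.26%). The count was 4 with the nearest start only (2.27%) and with the other thresholded list (3.05%). With a window from 500 bp upstream to 100 bp downstream it was 3 (2.11%), and rab-7 and epg-2 dropped out by construction. In the upper part of the conservative list by signal it was 2 (rab-7 and atg-18), beside 1.83% of all genes. It was 1 with replicate 1 left out (1.52%) and 2 with replicate 2 left out (1.29%). The median percentile of 85.2 became 82.8 with the narrow window, 79.9 with the wide one, 81.7 with the nearest start only, and 74.1 to 77.1 with either replicate left out. The Krüppel-like box was found in 1 to 3 genes with either replicate left out. Spearman's rho was 0.48 with only genes found in both replicates and 0.48 with the narrow window. Of the 99 other genes, 0 had a conservative peak with the narrow window (2.11% of all genes) and 3 with the wide one (vps-39, ikke-1 and daf-16, beside 4.12% of all genes). With a replicate left out, 35 of 60 percentiles of single genes moved by more than the gene's own SD over the 2 replicates. With the other ranked list it was 0 of 30. That SD is small where the replicates agree and large where they differ, so these counts do not measure stability. rab-7 counted as moved, from 99.72 to 99.55 with replicate 1 left out. vps-34 counted as not moved, from 24.25 to 35.94 with the other ranked list. The cause was not tested in the cases where none is given. No paired analysis was possible because the labels give a single group. With 2 replicates and unknown depth, a gene without a peak is not shown to lack binding.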
